A study of Homo sapiens with 4 samples.

Results

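The long noncoding RNA genes MALAT1, NEAT1 and CYTOR were examined for peaks of GapR-GFP. GapR is a DNA-binding protein of the bacterium Caulobacter that prefers overtwisted, or positively supercoiled, DNA, and GFP is its fluorescent tag. The 3 genes were chosen by the fold enrichment of their peaks, which was known from an earlier look at these lists. Every peak was then taken, whatever its height, whose summit fell inside a gene or at most 10 kb outside its boundaries. The list of WT replicate 1 held 42 such peaks of 81411, and that of WT replicate 2 held 28 of 42656. The genes are 3 of 18303 annotated lncRNA genes and of 59679 annotated genes on the nuclear chromosomes. As the choice used the peaks themselves, their values are a description, without a test.

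The libraries came from CUT&RUN with an antibody to GFP in HCT116 cells, an established line from a human colorectal carcinoma. In CUT&RUN, DNA beside an antibody-bound protein is released by a nuclease and sequenced. The 4 libraries fall into 2 labelled WT and 2 labelled MT. The series design describes WT as cells with the wild-type GapR-GFP fusion. The sample labels call the WT genotype wildtype and the MT genotype a double knockout of TOP2A and TOP2B, the type II topoisomerase genes, whereas the series design describes MT as a mutant GapR fusion. The labels give all 4 libraries palbociclib, a CDK4/6 inhibitor that arrests cells in G1, at 2 µM for 28 h, whereas the design describes asynchronous cells. The files did not settle either conflict. Whether the replicates were separate cultures is not stated, so differences between them may be technical. After duplicate filtering the depth was 21774260 and 27443146 fragments for WT replicates 1 and 2, and 23356540 for MT replicate 1, the control of both peak lists. MT replicate 2 was not analysed here.

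MALAT1 encodes an abundant RNA that stays in the nucleus and collects in nuclear speckles, bodies rich in splicing factors. Its 3′ end is made by RNase P, which cuts off a small tRNA-like RNA (MASCRNA), rather than by polyadenylation. NEAT1 encodes the RNA scaffold of paraspeckles, in a short polyadenylated and a long form that start at the same site. CYTOR, also known as LINC00152, encodes an RNA found in the nucleus and the cytoplasm and studied for its raised level in several carcinomas. A transcribing polymerase overtwists the DNA ahead of it and undertwists the DNA behind it. The readout here is GapR-GFP on DNA, so no RNA level was measured and the cell type could not be checked against expressed genes.

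In hg38, MALAT1 spans chr11:65497738-65506516 (8779 bp) on the plus strand. NEAT1 lies to its left at chr11:65422798-65445540 (22743 bp). Its orientation, the same as that of MALAT1, was taken from general knowledge. CYTOR spans chr2:87455427-87521518 (66092 bp) on the plus strand. A second lncRNA gene on the same chromosome, MIR4435-2HG, is a known copy of CYTOR and spans chr2:111195866-111495161 on the minus strand. Sequences of 300 bases around annotated starts (250 before and 50 after) were taken from RefSeq on GRCh38.p14 for MALAT1, CYTOR and the copy, because a peak lay over each of them in both lists. NEAT1 had no entry. Capitals mark matches, on either strand, to the GC box, which reads GGGCGG, and the TATA box, which reads TATAAA. In the same way they mark the CCAAT box and the AP-1 site, which reads TGAGTCA. The cyclic AMP response element TGACGTCA (CRE) was also searched. No match overlapped another.

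The MALAT1 windows are chr11:65497488-65497787 for the outer start and chr11:65498795-65499094 for a start inside the gene, both on the plus strand.
MALAT1 outer start: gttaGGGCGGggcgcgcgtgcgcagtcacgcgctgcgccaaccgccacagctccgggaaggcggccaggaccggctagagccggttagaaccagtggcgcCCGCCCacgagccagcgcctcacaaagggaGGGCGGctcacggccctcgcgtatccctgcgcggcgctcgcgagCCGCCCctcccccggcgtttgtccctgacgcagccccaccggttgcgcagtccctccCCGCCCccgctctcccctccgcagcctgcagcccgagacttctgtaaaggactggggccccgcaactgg
MALAT1 inner start: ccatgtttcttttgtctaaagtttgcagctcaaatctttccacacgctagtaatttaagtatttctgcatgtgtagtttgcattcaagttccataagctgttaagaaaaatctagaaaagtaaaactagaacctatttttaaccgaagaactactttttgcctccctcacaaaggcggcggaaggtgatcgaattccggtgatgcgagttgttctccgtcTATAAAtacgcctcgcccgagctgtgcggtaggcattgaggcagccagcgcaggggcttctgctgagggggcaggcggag
The window of the outer start is 73.7% G and C, with 37 CpG pairs, against a median of 58.7% and 14 over all 35116 promoter windows. It holds 5 GC boxes, a motif present in 45.0% of all windows. The window of the inner start is 46.0% G and C and holds a TATA box, which 11.5% of all windows have. The 2 starts of MALAT1 thus differ in base composition and in these motifs.

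The windows of CYTOR and of its copy are chr2:87455177-87455476 (plus strand) and chr2:111495112-111495411 (minus strand). They are printed to show how far the copies match.
CYTOR start: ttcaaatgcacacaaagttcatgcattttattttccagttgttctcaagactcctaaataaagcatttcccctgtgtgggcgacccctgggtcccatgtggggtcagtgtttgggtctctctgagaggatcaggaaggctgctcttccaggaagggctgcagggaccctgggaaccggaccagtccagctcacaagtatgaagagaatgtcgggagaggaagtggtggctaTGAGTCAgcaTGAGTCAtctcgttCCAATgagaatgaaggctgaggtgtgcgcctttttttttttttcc
MIR4435-2HG start: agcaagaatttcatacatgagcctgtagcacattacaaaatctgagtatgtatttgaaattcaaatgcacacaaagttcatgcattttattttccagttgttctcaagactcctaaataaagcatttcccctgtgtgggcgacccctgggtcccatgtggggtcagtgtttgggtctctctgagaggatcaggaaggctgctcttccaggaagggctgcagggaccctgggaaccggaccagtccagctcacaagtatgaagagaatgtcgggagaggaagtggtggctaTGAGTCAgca
The annotated starts are offset by 59 bp. Over the 241 bases that both windows hold, 241 were identical, so a fragment wholly inside this stretch could not be assigned to one gene rather than the other. The CYTOR window holds 2 AP-1 sites and a CCAAT box. The window of the copy holds the first of these AP-1 sites and ends before the places of the second and of the CCAAT box. An AP-1 site is present in 4.95% of all windows, a pair or more in 0.222%, and a CCAAT box in 34.6%. No TATA box, GC box or CRE was found in either window. CREs occur in 1.85% of all windows and were in none of these 4. A match is a string of letters, not a bound site.

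The comparison of WT with MT libraries gives each peak a height. The deposited fold enrichment is the WT pileup (fragments over the summit) plus 1, divided by the local MT level plus 1. The MT level behind a peak cannot fall below the genome background of the list, 1.87 in WT replicate 1 and 2.20 in WT replicate 2. A peak is called shared when it overlaps a peak of the other WT list by at least 1 bp. Over the whole lists, 39.1% of peaks in WT replicate 1 and 84.5% in WT replicate 2 were shared. Each list compares 1 WT library with the same MT library, so no fold has a replicate error of its own, and the sharing of sites is not independent of that control.

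The highest point of the 3 loci lay just beyond the 3′ end of MALAT1. Its summit stood 1418 bp past the annotated end in WT replicate 1 and 1395 bp past it in WT replicate 2, so the summits were 23 bp apart. The WT pileup was 55 in WT replicate 1 over an MT level of 1.87, and 53 in WT replicate 2 over an MT level of 2.20. Fold enrichment reached 19.5 in the first list and 16.9 in the second (mean 18.2 ± 1.85, SD, n = 2). In both lists the MT level was at its lowest possible value there. This peak ranked 17 of 81411 by fold enrichment in WT replicate 1 and 3 of 42656 in WT replicate 2. The exact 95% Poisson intervals of the pileups, which cover counting error only, were 41.4 to 71.6 and 39.7 to 69.3. Per 1000000 filtered fragments the pileups were 2.53 and 1.93.

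The 3′ peak of MALAT1 was also long. In WT replicate 1 it ran over 7136 bp, from 2308 bp before the end of the gene to 4827 bp past it, and ranked 59 by length in its list. In WT replicate 2 the same ground held a peak of 2484 bp with the summit above and a second of 728 bp (fold 6.21, pileup 21, MT level 2.54) whose summit was 4271 bp past the end. MASCRNA, at chr11:65506117-65506174, lay under the long peak of WT replicate 1, and its right edge was 1760 bp and 1737 bp from the summits. TALAM1, annotated as an antisense RNA of MALAT1 at chr11:65499312-65507432, ends on that side 502 bp and 479 bp short of the summits. That edge is where an RNA antisense to MALAT1 begins. The site is thus near the 3′ end of 1 transcript and the 5′ end of another, and these positions cannot be told apart with unstranded peaks.

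**Figure D1:**
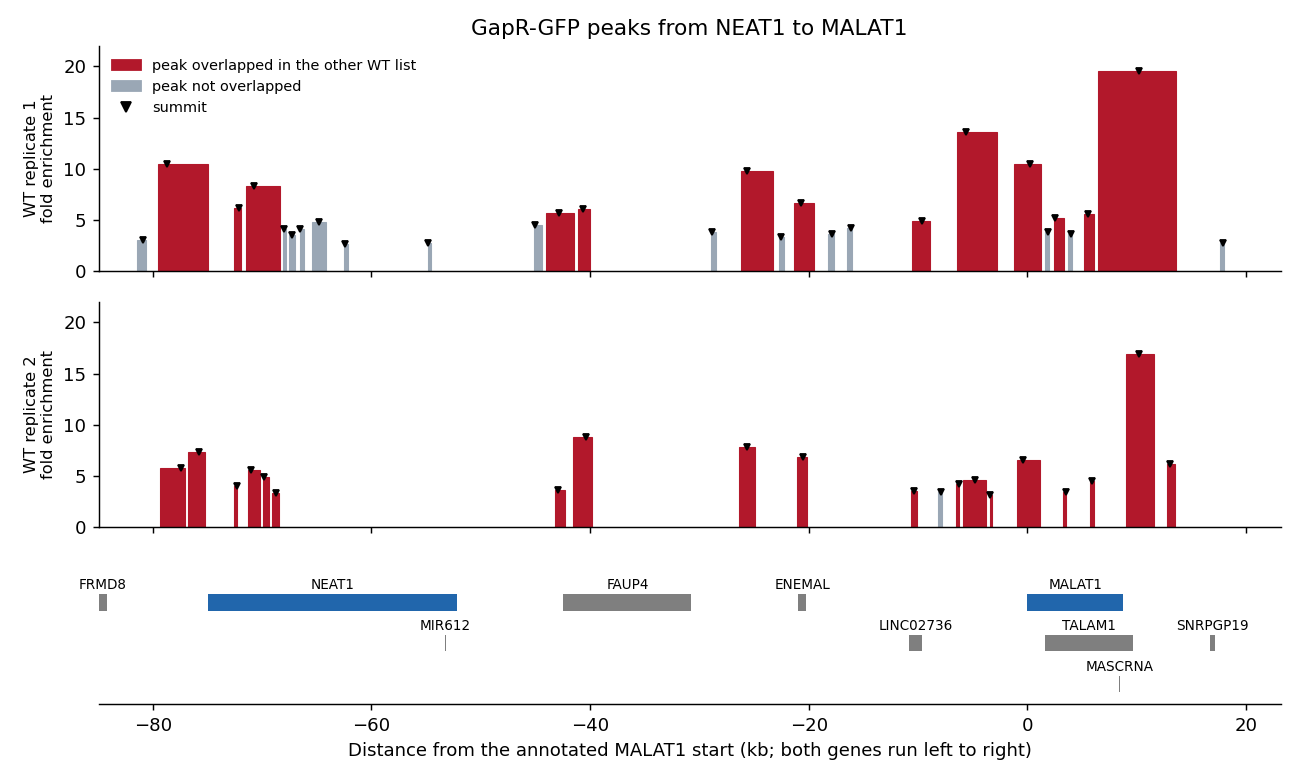
Peaks from 10 kb before NEAT1 to 10 kb past MALAT1, with the distance from the annotated MALAT1 start in kb on the x axis and the fold enrichment of each whole peak on the y axis of each WT list. Annotated genes are drawn below. Red bars overlap a peak of the other WT list and grey bars do not. The highest bar crosses the right end of MALAT1 in WT replicate 1, at 19.5, and starts just beyond it in WT replicate 2, at 16.9.

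Upstream of MALAT1 the lists differed in height more than at the 3′ end. A peak of 3676 bp had its summit 5635 bp before the start in WT replicate 1, with a pileup of 39, an MT level of 1.95 and a fold of 13.6. In WT replicate 2 the same ground held 3 peaks with folds of 4.18, 4.62 and 3.13, at pileups of 13, 23 and 9. The MT level under the middle one was 4.19, the highest at MALAT1 in that list. The outer start of MALAT1 lay under a peak of 2479 bp in WT replicate 1 (pileup 29, MT level 1.87, fold 10.5) and one of 2176 bp in WT replicate 2 (pileup 20, MT level 2.20, fold 6.57). Their summits were 263 bp inside the gene and 403 bp before it. Both peaks also reached into the window of the inner start. Of 12917 lncRNA promoter windows, 16.8% lay under a peak of both lists, as did 42.9% of the protein-coding ones.

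Between its ends MALAT1 carried low peaks. Inside the gene, apart from the start, WT replicate 1 had folds of 3.83, 5.23, 3.67 and 5.57, and WT replicate 2 had 3.44 and 4.52. The peaks at 5.23 and 5.57 were shared. The middle 50% of all peaks had folds of 3.42 to 5.57 in WT replicate 1 and 3.56 to 5.63 in WT replicate 2, and the interior summits were in or near that range. Peaks covered 69.1% of the length of MALAT1 in one list and 21.1% in the other (45.1% ± 33.9, SD, n = 2). With flanks, MALAT1 had 9 peaks in each list, of which 6 (WT replicate 1) and 8 (WT replicate 2) were shared. Over the whole lists the shares were 39.1% and 84.5%. The strongest peak stood 1.44 times above the next in WT replicate 1 and 2.57 times above it in WT replicate 2. When only summits inside the gene were counted, the mean of the highest folds was 7.48 in place of 18.2.

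NEAT1 had its strongest peaks before the start. In WT replicate 1 a peak of 4539 bp ended 58 bp before the annotated start, with its summit 3810 bp before it (pileup 32, MT level 2.16, fold 10.4). In WT replicate 2 the ground was split between a peak with its summit 2524 bp before the start (pileup 25, MT level 3.52, fold 5.75) and one at 867 bp (pileup 23, MT level 2.29, fold 7.30). The highest fold averaged 8.87 ± 2.21 (SD, n = 2), and the lists placed it 2943 bp apart. In neither list did a peak lie across the annotated NEAT1 start itself. FRMD8, a protein-coding gene on the plus strand (chr11:65368026-65413525), ends to the left of these upstream peaks. The peaks thus lie between the 3′ end of FRMD8 and the NEAT1 start, and their folds are not those of NEAT1 alone.

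The shared peaks inside NEAT1 were all in its first part. In WT replicate 1 they had summits 2855 bp and 4152 bp past the start, with pileups of 20 and 27, MT levels of 2.38 and 2.38, and folds of 6.21 and 8.29. WT replicate 2 had 4 summits at 2607, 3933, 5131 and 6239 bp, with folds of 4.07, 5.59, 4.88 and 3.30. The last shared summit stood at 18.3% and 27.4% of the gene's length. Beyond that, WT replicate 1 alone had 6 further summits with folds of 2.63 to 4.81, the last at 88.6% of the length. MIR612, a microRNA gene at chr11:65444458-65444557 near the NEAT1 end, lay under no peak of either list.

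Past its annotated 3′ end, that of the long form, NEAT1 had no counterpart of the MALAT1 peak. The end of the short form was not placed, so no distance was measured from it. The nearest summit beyond the end was 7187 bp away in WT replicate 1 (fold 4.53, not shared). The next was 9322 bp away in WT replicate 1 (pileup 23, MT level 3.24, fold 5.65) and 9295 bp in WT replicate 2 (pileup 16, MT level 3.69, fold 3.63). These summits were 27 bp apart, and both peaks cross the left edge of FAUP4, a transcribed pseudogene. NEAT1 had 12 peaks in the first list, 4 of them shared, and 7 in the second, all shared. Over the whole lists, 39.1% and 84.5% of peaks were shared. Peaks covered 30.7% and 11.1% of the length of NEAT1. The MT level was above its lowest value at each shared NEAT1 peak of WT replicate 1, at 2.16 to 3.24.

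CYTOR had its strongest peak over the start. In WT replicate 1 a peak of 4225 bp had its summit 177 bp before the annotated start, with a pileup of 50, an MT level of 2.33 and a fold of 15.3, and ranked 209 of 81411. In WT replicate 2 a peak of 2111 bp had its summit 530 bp inside the gene, with a pileup of 26, an MT level of 2.29 and a fold of 8.21, and ranked 1991 of 42656. The mean was 11.8 ± 5.02 (SD, n = 2). The summits were 707 bp apart, and the folds differed between the lists by more than at MALAT1. The exact Poisson intervals of the pileups just overlapped, with a lower bound of 37.1 in the first list and an upper bound of 38.1 in the second. The peak also lay over LINC01943, an overlapping lncRNA gene on the minus strand (chr2:87439523-87459096), and the start of NCAL1, an lncRNA gene on the plus strand (chr2:87455479-87737853), so its fold is not that of CYTOR alone.

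**Figure D2:**
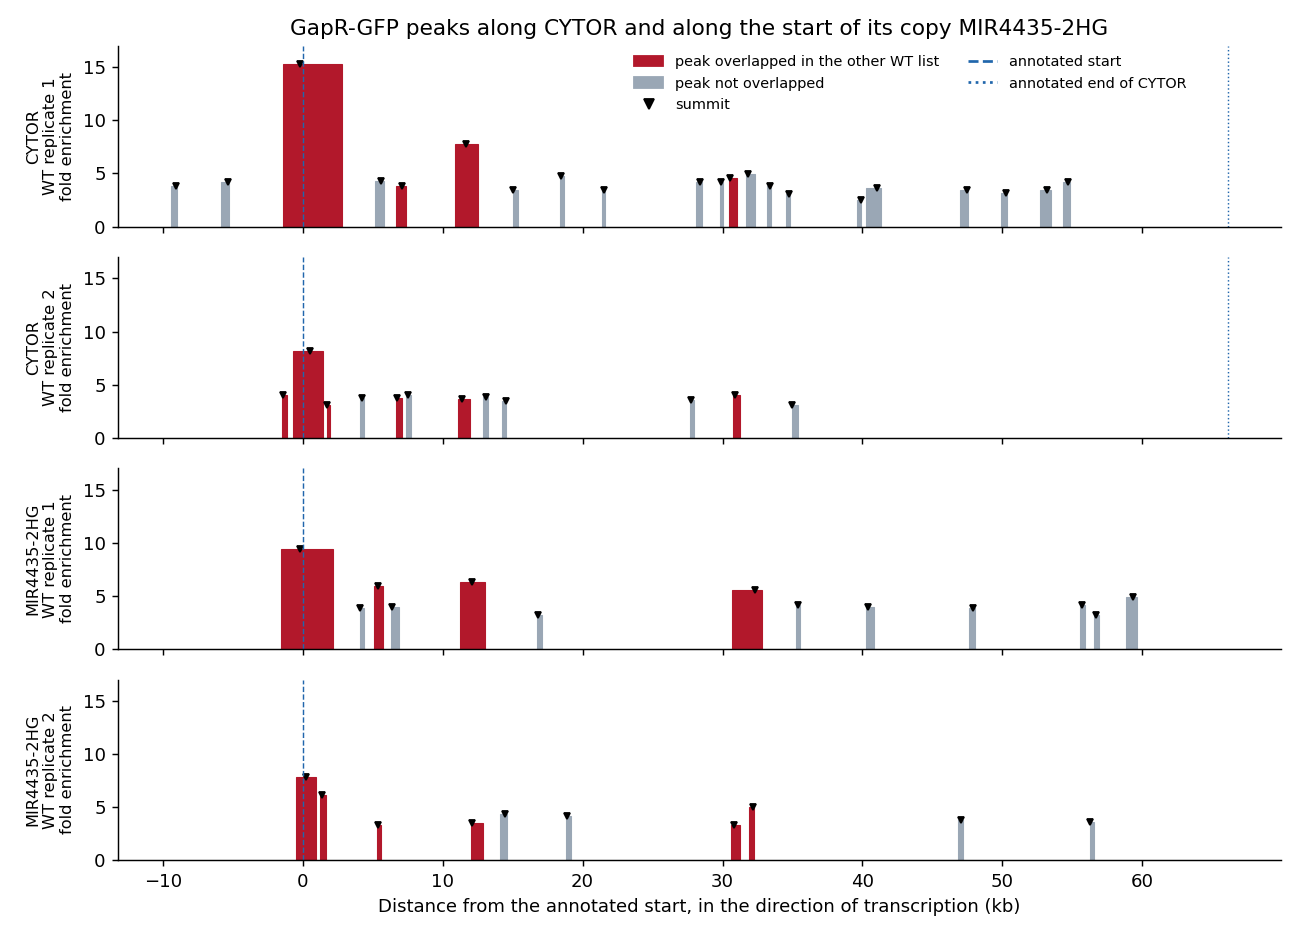
Peaks along CYTOR (upper pair of panels) and along a stretch of like length from the start of MIR4435-2HG (lower pair). The x axis is the distance from the annotated start in kb along the direction of transcription, and the y axis is fold enrichment. Peaks farther into the copy are not drawn. Red bars are peaks that overlap one of the other WT list, grey bars are the rest, and triangles are summits. In all 4 panels the highest bar spans or adjoins the start, at 15.3 and 8.21 for CYTOR and 9.45 and 7.87 for the copy.

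The interior of CYTOR carried many low peaks and few shared ones. WT replicate 1 had 18 summits inside the gene, 3 of them shared, and WT replicate 2 had 11, 5 of them shared. Over the whole lists, 39.1% and 84.5% of peaks were shared. The shared ones of WT replicate 1 stood 7075, 11685 and 30535 bp past the start with folds of 3.83, 7.74 and 4.53, and those of WT replicate 2 at the same places had 3.75, 3.66 and 4.07. The peak at 11685 bp was the only one of these above the median of its list by more than 1.5 times, and only in WT replicate 1. Its raw pileups were 26 in WT replicate 1 and 22 in WT replicate 2, or 1.19 and 0.802 when scaled to filtered fragments as at MALAT1. The MT level behind it was 2.49 in the first list and 5.29 in the second. Both levels come from the same MT library, read at summits 326 bp apart. The last shared summit was at 46.2% of the length in WT replicate 1 and at 46.8% in WT replicate 2. In both lists it also lay inside LOC124906032, an lncRNA gene on the minus strand (chr2:87477495-87487334). The last summit of all stood 11393 bp before the end of the gene in WT replicate 1 and 31098 bp before it in WT replicate 2, and none lay in the 10 kb beyond.

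Outside the window of CYTOR a long stretch held no summit. The first one lay 113591 bp to the left in WT replicate 1 and 40934 bp in WT replicate 2. To the right it lay 108712 bp and 108220 bp from the gene end, with folds of 3.14 and 3.76. How well reads map in and around CYTOR was not measured, so stretches without summits there were not shown to lack GapR-GFP. Around NEAT1 and MALAT1 the first summits outside the windows on the stretch between the genes were 10380 to 16158 bp away, with folds of 3.56 to 8.76. The 10 kb limit kept weak summits and left out others of like height. On the left, the last summits inside the windows were 9652 bp (fold 4.88) and 7900 bp (fold 3.44) from MALAT1, 5915 bp (fold 3.05) and 2524 bp (fold 5.75) from NEAT1, and 9052 bp (fold 3.83) and 1402 bp (fold 4.07) from CYTOR. On the right of NEAT1, summits at 9322 bp (fold 5.65) and 9295 bp (fold 3.63) were inside the limit, and those at 11512 bp (fold 6.10) and 11789 bp (fold 8.76) outside it. On the right of MALAT1, the last inside were at 9106 bp (fold 2.79) and 4271 bp (fold 6.21), and the first outside at 18661 bp (fold 8.71) and 18649 bp (fold 4.38).

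The copy of CYTOR also had its highest peak at the start, though by a smaller margin. It stood 1.20 times above the next peak in WT replicate 1 and 1.05 times in WT replicate 2, against 1.98 and 2.02 at CYTOR. Those second peaks of the copy lay 206708 bp (fold 7.90) and 177897 bp (fold 7.51) past its start. At the start of MIR4435-2HG, WT replicate 1 had a summit 175 bp before the annotated start (pileup 34, MT level 2.70, fold 9.45) and WT replicate 2 had one 275 bp inside it (pileup 30, MT level 2.94, fold 7.87). The fold at CYTOR was thus 15.3 against 9.45 at the copy in WT replicate 1, and 8.21 against 7.87 in WT replicate 2. Going inward from the start, the first shared summits of WT replicate 1 in the copy were at 5368, 12127 and 32324 bp, against 7075, 11685 and 30535 bp in CYTOR. No sequence was aligned beyond the promoter windows, so these positions are not known to correspond. As the promoter sequences are identical where compared, how fragments were split between the copies cannot be read from the peaks. A microRNA gene is copied on this chromosome as well. MIR4435-2 lies within MIR4435-2HG and MIR4435-1 lies to the right of CYTOR, within the span of NCAL1, and both give the mature sequence hsa-miR-4435. It is printed because the 22 bases are identical at both copies, and its seed (bases 2 to 8) is in capitals.
hsa-miR-4435: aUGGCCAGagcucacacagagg
MIR4435-2 lay under a peak of WT replicate 1 (fold 4.18) and 225 bp from a summit of WT replicate 2 (fold 5.97). MIR4435-1 lay outside the CYTOR window, under a peak of WT replicate 2 alone (fold 3.76).

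**Figure D3:**
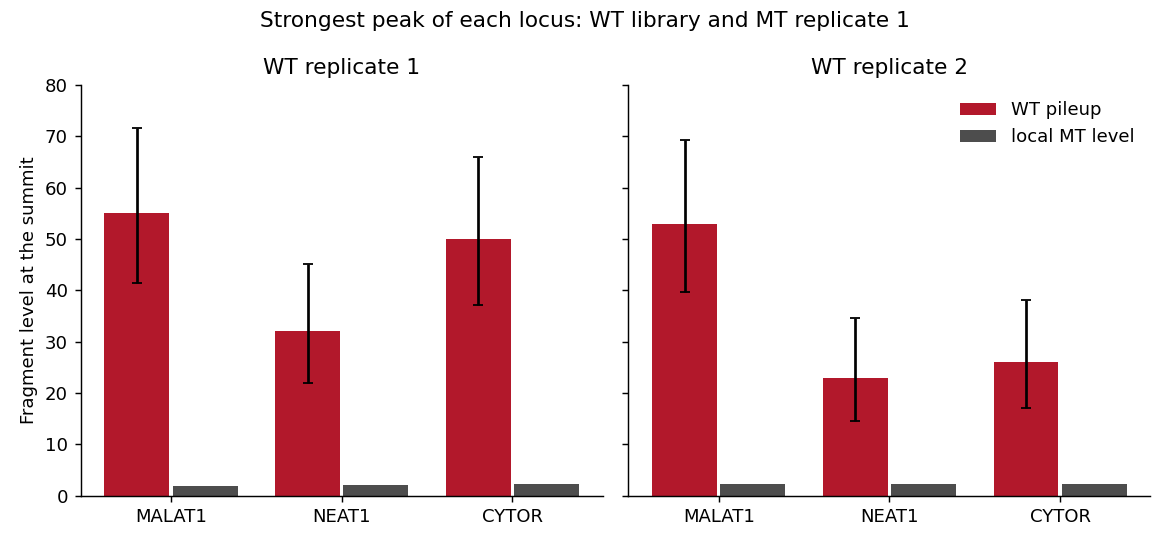
WT pileup (red, with exact 95% Poisson intervals that cover counting error only) and local MT level (dark) at the strongest peak of each locus, in fragments, for both WT lists. The WT pileup at MALAT1 was 55 and 53, at NEAT1 32 and 23 and at CYTOR 50 and 26, over MT levels of 1.87 to 2.33.

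Set in order of the mean highest fold, the loci ran MALAT1 (18.2 ± 1.85), CYTOR (11.8 ± 5.02) and NEAT1 (8.87 ± 2.21; SD, n = 2 each). The ranges over the lists did not overlap between MALAT1 and each of the others. Those of CYTOR (8.21 to 15.3) and NEAT1 (7.30 to 10.4) did. In each list alone the order was the same. It rested on the peak beyond the 3′ end of MALAT1. With summits inside the genes only, the means were 7.98 at CYTOR, 7.48 at MALAT1 and 6.94 at NEAT1. That order held in neither list alone. In WT replicate 1 the folds were 10.5 at MALAT1, 8.29 at NEAT1 and 7.74 at CYTOR. The CYTOR peak of 15.3 dropped out there, as its summit is before the start. In WT replicate 2 they were 8.21 at CYTOR, 5.59 at NEAT1 and 4.52 at MALAT1.

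The presence of a peak was common among lncRNA genes. Summits inside the gene or its 10 kb flanks were present at 52.3% of lncRNA genes in WT replicate 1 and at 39.6% in WT replicate 2, and a shared peak at 37.5%. As many peaks as at these 3 genes were less common. Among 7017 other lncRNA genes of 50% to 200% of the length of MALAT1, 0.613% had as many peaks in WT replicate 1 and 0.185% in WT replicate 2, and 0.242% had as many shared peaks. For NEAT1 the shares over 5585 genes were 0.573%, 0.824% and 2.18%. For CYTOR over 2699 genes they were 0.333%, 0.556% and 4.96%. Summits inside the gene came at 0.570 and 0.228 per kb in MALAT1, at 0.352 and 0.176 in NEAT1 and at 0.272 and 0.166 in CYTOR. Over the effective genome of the caller the density was 0.0302 and 0.0158 per kb. That ground includes stretches without genes, and the 3 genes were chosen by their peaks, so a higher density was partly set beforehand.

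By highest fold, MALAT1 ranked 12 of 9581 lncRNA genes with a peak in WT replicate 1 and 3 of 7249 in WT replicate 2. CYTOR ranked 95 and 807. NEAT1 ranked 1193 and 1447. The median highest fold of the other lncRNA genes of like length with a peak was 6.13 and 5.53 for MALAT1, 6.06 and 5.38 for NEAT1 and 6.27 and 5.43 for CYTOR. All 3 genes were above these medians in both lists. As they were chosen by the fold of their peaks, these ranks and places were partly set by that choice.

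**Figure D4:**
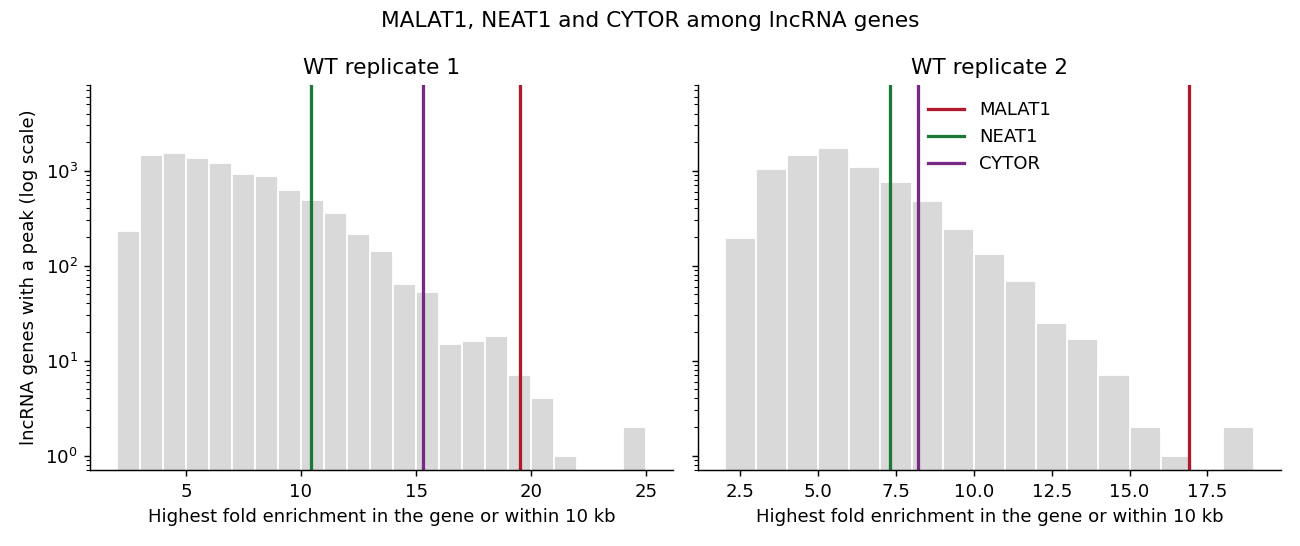
Number of lncRNA genes (log scale) by the highest fold enrichment in the gene or within 10 kb, in bins of width 1, for each WT list, with vertical lines at the members. MALAT1 is at 19.5 and 16.9, in the far right of both distributions, and NEAT1 at 10.4 and 7.30.

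The place of the strongest peak was compared over lncRNA genes. Of 4245 lncRNA genes of at least 5 kb with a known strand and a peak in WT replicate 1, 6.88% had it within 2 kb of the end and 35.7% within 2 kb of the start. In WT replicate 2, with 3221 genes, it was 6.71% and 39.8%. A further 15.8% and 15.5% had it farther beyond the end, between 2 kb and 10 kb. MALAT1 is in the class within 2 kb of the end in both lists and CYTOR in that within 2 kb of the start. The strongest peak of NEAT1 was upstream by over 2 kb in WT replicate 1 and within 2 kb of the start in WT replicate 2. Among these genes of at least 5 kb, 44 had a fold at or above that of CYTOR in WT replicate 1, and of them 4 had the strongest peak within 2 kb of the end and 17 within 2 kb of the start. In WT replicate 2 it was 22 and 170 of 373. The limit of 2 kb was chosen after the MALAT1 summits were seen.

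**Figure D5:**
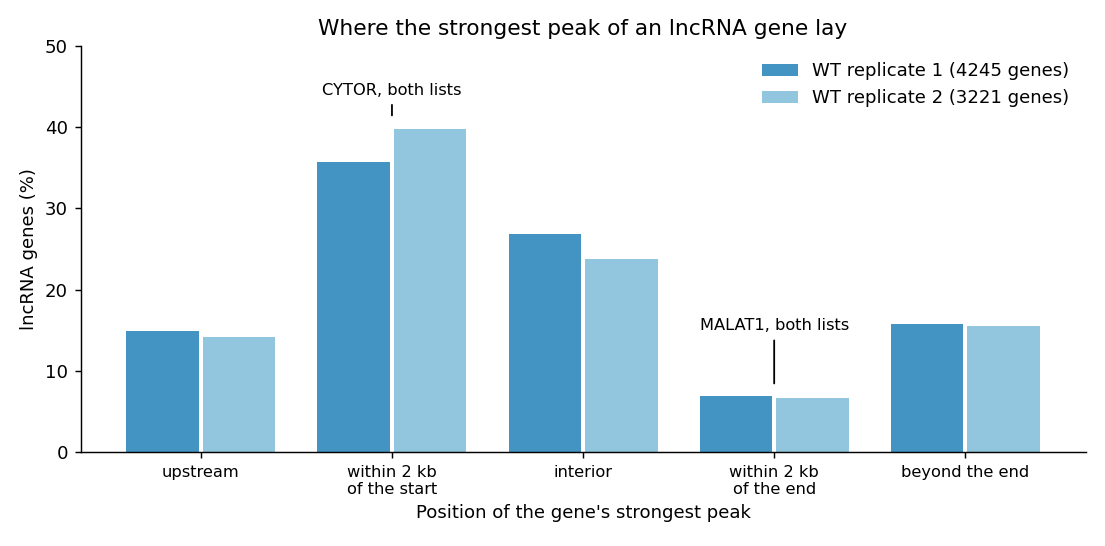
Share of lncRNA genes of at least 5 kb (y axis, percent) by the position of their strongest peak in the gene or within 10 kb (x axis), for both WT lists. The class within 2 kb of the end, which holds MALAT1, has 6.88% and 6.71% of the genes, and the class within 2 kb of the start, which holds CYTOR, has 35.7% and 39.8%.

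Summits inside the genes were also counted by side. At NEAT1, 6 of 8 in WT replicate 1 and 4 of 4 in WT replicate 2 lay in the first 50% of the length. At CYTOR it was 10 of 18 and 10 of 11, and at MALAT1 4 of 5 and 1 of 2. Over all lncRNA genes of at least 5 kb with a known strand, 59.7% of 6437 and 64.1% of 3889 summits did so. The counts at each gene are small, and no test was made.

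Of 20 lncRNA genes known for high or well-studied expression, 16 had a shared peak, against 37.5% of all lncRNA genes. MALAT1, NEAT1 and CYTOR are on this list, and without them it was 13 of 17. MALAT1 had the highest mean fold of the list. Nearest to it were GAS5 (19.6 in WT replicate 1 and 8.17 in WT replicate 2), CYTOR, PVT1 (14.9 and 6.80) and SNHG16 (9.75 and 9.08). Only SNHG16 of these 4 had folds as alike in both lists as MALAT1 did. Nearest to NEAT1 were SNHG1 (10.1 and 6.57), SNHG16, CCAT1 (10.5 and 5.87) and SNHG15 (7.66 and 7.82), and nearest to CYTOR were PVT1, GAS5, SNHG16 and NEAT1. Likeness is the difference in mean highest fold over the 2 lists. EPB41L4A-AS1, NORAD, HOTAIR and MEG3 had no shared peak. TUG1, one of the 20, is classed as protein-coding in RefSeq.

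Genes for proteins of the bodies that hold these RNAs were also counted. Of 16 genes for paraspeckle proteins, the partners of NEAT1, 13 had a shared peak, against 70.7% of protein-coding genes. By the mean over both lists, the 2 highest were the stress-response RNA-binding protein gene CIRBP (15.3 in WT replicate 1 and 9.39 in WT replicate 2) and RBM14 (11.8 and 10.6), and PSPC1, a core paraspeckle protein gene, was the longest without one, with 18 summits in the first list and 0 in the second. SFPQ, which binds NEAT1, had 6.16 and 4.89, and NONO had 1 summit in WT replicate 1 alone. Of 16 genes for nuclear speckle proteins, 15 had a shared peak and U2AF1 had none. By the mean over both lists, the 2 highest were the RNA helicase gene DDX39B (14.6 and 9.25) and the spliceosome gene PRPF8 (15.3 and 8.14). The order within each list alone was different. The median highest shared fold was 6.16 and 5.01 for the paraspeckle list and 8.36 and 6.26 for the speckle list. Over all protein-coding genes with a shared peak it was 8.01 and 6.23. No set test was made.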

How the data were processed

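Per the submitters' processing notes, the tools were MACS2 2.1.2, Bowtie2 2.3.4 and ChIPseeker 1.28.3, and the build was hg38. The authors called narrow peaks on paired-end fragments with MACS2 for each WT library against MT replicate 1, at a q-value cutoff of 0.05 and a smallest length of 200 bp, per the file headers. The same headers give at most 2 fragments kept per position and control windows of 1000 and 10000 bp. The deposited pileup is a signal (fragment coverage), the deposited fold enrichment is a ratio, and the −log10 q-value deposited beside it, like the −log10 p-value, is the authors' peak caller's. All pileups were whole, so WT values were read as unscaled. A blacklist or a limit on mapping quality is not named in the sources used. Peak positions are those of the files, in hg38.

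Here the local MT level was computed back as (pileup + 1) / fold − 1. A level within 1% of the lowest of a list counted as lowest. Its lowest value equals the genome background of the WT library. Summits were placed relative to RefSeq gene boundaries of GRCh38.p14, strands came from the promoter table, and lncRNA is the RefSeq class. Other lncRNA genes of like length had 50% to 200% of the length of the gene. Shared peaks overlapped by at least 1 bp. Counting was tested on planted peaks. No test between groups was made, because both lists share 1 MT library and the genes were chosen with their peaks known. Poisson intervals of 95% cover counting error only. No molecular identifiers are named in the labels, so fragments may not be independent molecules. The genes, gene lists and settings were chosen with earlier results of these data known. Named genes were the members, genes that overlap their windows and the copy of CYTOR. SNRPGP19, in the MALAT1 window, and LOC107985909, in the CYTOR window, were not described further. The 4 lncRNA genes of a list nearest to each member in fold were named too. So were, in each protein list, the 2 best and the longest without a shared peak. SFPQ and NONO were added after their values were seen. Alternatives were the flank, a stricter q-value, a stricter overlap, summit distance, the lowest MT level, and each WT list alone. Analyses used Python 3.11.15, pandas 2.3.3, numpy 2.4.6, scipy 1.17.1 and matplotlib 3.10.9.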

Additional observations from a re-analysis of the deposited data

How the results depend on the processing

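The number of shared peaks was 6 at MALAT1, 4 at NEAT1 and 4 at CYTOR. With summits inside the gene only it was 3 at MALAT1 and 2 at NEAT1. With peaks of −log10 q of at least 10 it was 2, 2 and 1 at MALAT1, NEAT1 and CYTOR. With an overlap of 50% of both peaks it was 2 at MALAT1 and 1 at NEAT1, and with summits within 250 bp it was 1 at MALAT1 and 1 at CYTOR. Restricted to the lowest MT level it was 3, 0 and 2, and the mean highest fold fell to 4.30 at NEAT1 and 4.30 at CYTOR, against 8.87 and 11.8, because the strongest peaks of both genes stood over a higher MT level. At MALAT1 it stayed at 18.2 under that setting. With summits inside the gene only it was 7.48 at MALAT1, 7.98 at CYTOR and 6.94 at NEAT1. This puts CYTOR above MALAT1 in the mean and in WT replicate 2, but below it in WT replicate 1. A flank of 5 kb changed no mean highest fold, and all counts with it were within 1.5 times. Each WT list alone gave 9 peaks at MALAT1, 7 to 12 at NEAT1 and 12 to 21 at CYTOR, with highest folds of 16.9 to 19.5, 7.30 to 10.4 and 8.21 to 15.3. No paired analysis was possible because both WT lists were called against MT replicate 1. The smallest pileup was 7 fragments, at 1 peak each of MALAT1 and NEAT1 in WT replicate 1, and counting error limits such peaks most.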

Other observations

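The ground between the windows of NEAT1 and MALAT1, 32197 bp, held 7 peaks in WT replicate 1 and 4 in WT replicate 2. At 3 places the lists met. At FAUP4 the summits had folds of 6.10 and 8.76 in WT replicates 1 and 2, at pileups of 25 and 27 over MT levels of 3.26 and 2.20. In an unannotated stretch 25662 bp and 25644 bp before the MALAT1 start they were 9.75 and 7.82, with pileups of 27 and 24, and the summits were 18 bp apart. At ENEMAL, a short lncRNA gene, they were 6.62 and 6.88. The MT level was at its lowest value at the unannotated stretch and at ENEMAL in both lists. The other peak of WT replicate 2, at LINC02736 (fold 3.56), overlapped one of WT replicate 1 whose summit falls in the MALAT1 window. From 10 kb before NEAT1 to 10 kb past MALAT1, the summed peak length was 40.0% of 103719 bp in WT replicate 1 and 20.4% in WT replicate 2, and 28 and 20 summits lay there.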
